A study of Mus musculus with 28 samples.

Results

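Resting skin of mice whose Vsir gene was floxed and that carried K14Cre (cKO_NoUV) was compared with resting skin of floxed mice without Cre (FL_NoUV), 4 libraries a side. These 8 libraries, chosen by the genotype and treatment named in the labels, are part of 28 in the series. All 8 came from 12-week-old female mice whose hair had been shaved and removed with a depilatory cream 5 days earlier, and none received ultraviolet B light (UVB). The cKO_NoUV genotype was K14Cre Vsir fl/fl and the FL_NoUV genotype was Vsir fl/fl, so both groups carried the floxed alleles and differed in the Cre transgene. The design text calls the controls littermates, and speaks of biological replicates. Other libraries of the series are used beside them for the same genes. These are the same genotype pair after 500 mJ/cm² UVB (cKO_UV and FL_UV, 4 libraries each, titled as harvested 3 h later although the treatment protocol gives 1 day) and resting skin of Vsir-/- mice (KO_NoUV) and wild-type mice (WT_NoUV), 3 libraries each, from a separate experiment with another batch label. One batch label covers all libraries of the keratinocyte experiment.

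Vsir encodes VISTA, an inhibitory immune checkpoint of the B7 family that is abundant on myeloid cells and also present on T cells. Checkpoints of this family restrain T cells and inflammatory signalling through receptors and ligands on neighbouring cells. The Krt14 promoter that drives the Cre is active in basal keratinocytes of the epidermis and in the outer epithelium of hair follicles and sebaceous glands, and the recombined allele is inherited by the suprabasal cells that arise from them. Whole skin also holds fibroblasts, vessels, nerves, immune cells, fat and muscle that do not express the Cre. In such bulk RNA, fewer cells of a type and less RNA per cell cannot be told apart.

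Total counts ran from 22.05 to 31.14 M reads in cKO_NoUV libraries and from 7.12 to 30.51 M in FL_NoUV libraries, the lowest being FL_NoUV 1. Libraries differed in the hair follicle before any genotype comparison. The mean log2 of counts per M counts (CPM) of 33 genes of the growing (anagen) follicle was 6.94, −0.28, −0.44 and 0.94 in cKO_NoUV 1 to 4, against 1.23, 3.56, −0.23 and 5.78 in FL_NoUV 1 to 4. Krt25, an inner root sheath keratin named after its values were seen, had 1977, 0.118, 0 and 11.55 CPM in cKO_NoUV libraries, against 32.57, 112.7, 0.273 and 1285 CPM in FL_NoUV libraries. Thus cKO_NoUV 1, FL_NoUV 4 and, to a lesser degree, FL_NoUV 2 stood apart, and they lay at −84.4, −60.4 and −26.2 on the first principal component, which held 41.65% of the variance and was led by Krt25, Krt71 and Krt73. FL_NoUV 1 stood apart on the second component, at 96.7, with 24% of the variance. Transcripts of 20 skeletal muscle genes made up 1.48%, 4.82%, 3.51% and 4.14% of counts in cKO_NoUV 1 to 4, against 1.92%, 1.95%, 2.51% and 1.59% in FL_NoUV 1 to 4.

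**Figure D1:**
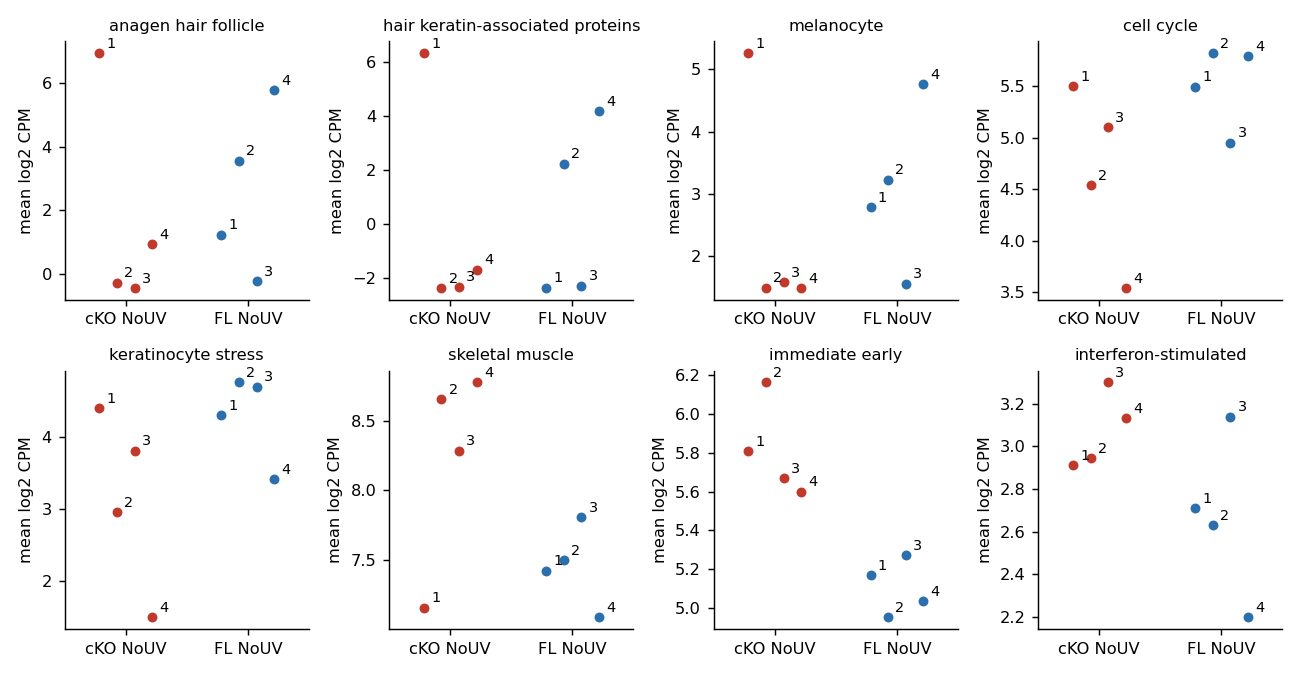
Mean log2 CPM of 8 gene lists in each library of cKO_NoUV (left in each panel) and FL_NoUV (right), with the replicate number beside each point. Anagen hair follicle, hair keratin-associated protein and melanocyte genes are high in cKO_NoUV 1, FL_NoUV 4 and FL_NoUV 2. Melanocyte genes are nearly as high in FL_NoUV 1 (2.78) as in FL_NoUV 2 (3.22). Skeletal muscle genes are high in cKO_NoUV 2 to 4, and the immediate early values of the groups do not overlap.

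The first question was whether Vsir transcript differed in whole skin. Vsir (ENSMUSG00000020101.15) had 17, 35.13, 38.29 and 44.96 CPM in cKO_NoUV libraries, against 19.4, 22.51, 38.54 and 20.8 CPM in FL_NoUV libraries. The cKO_NoUV library 1 was the lowest of all 8 and the other 3 cKO_NoUV libraries were in the upper part of the range, so the groups overlapped. The log2 fold change (log2FC, cKO minus FL) was 0.41 with a standard error (SE) of 0.32 and a 95% interval of −0.26 to 1.08 (edgeR quasi-likelihood test, adjusted p = 0.923). After UVB it was −0.07 (SE 0.32). In the whole-body experiment the same gene had 6.87, 6.50 and 5.07 CPM in KO_NoUV skin and 46.07, 34.62 and 34.49 CPM in WT_NoUV skin, with a log2FC of −2.64 (SE 0.23, edgeR adjusted p = 0.00047). The gene-level count sums all exons, including any transcribed outside the floxed part, and includes cells without Cre. It therefore does not show how much Vsir the keratinocytes of cKO_NoUV mice had lost. The labels do not say which exons are floxed.

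Krt14, the basal keratin whose promoter drives the Cre, had 1088, 1493, 1841 and 792.1 CPM in cKO_NoUV libraries and 904.2, 2155, 2254 and 1379 CPM in FL_NoUV libraries. The groups overlapped (log2FC −0.36, SE 0.41). All 18 basal keratinocyte genes on the list passed the filter on low counts, and 0 of them reached an unadjusted p under 0.05. Their median log2FC was 0.06, beside 0.00 for all genes tested. Krt15, a keratin of basal and follicle bulge cells, had a log2FC of 0.71 (SE 0.40), and Lamb3, a chain of the basement membrane protein laminin-332, had 0.45 (SE 0.26). The 7 genes of VISTA and its reported binding partners lay between −0.25 and 0.41, and 0 of them reached an unadjusted p under 0.05.

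**Figure D2:**
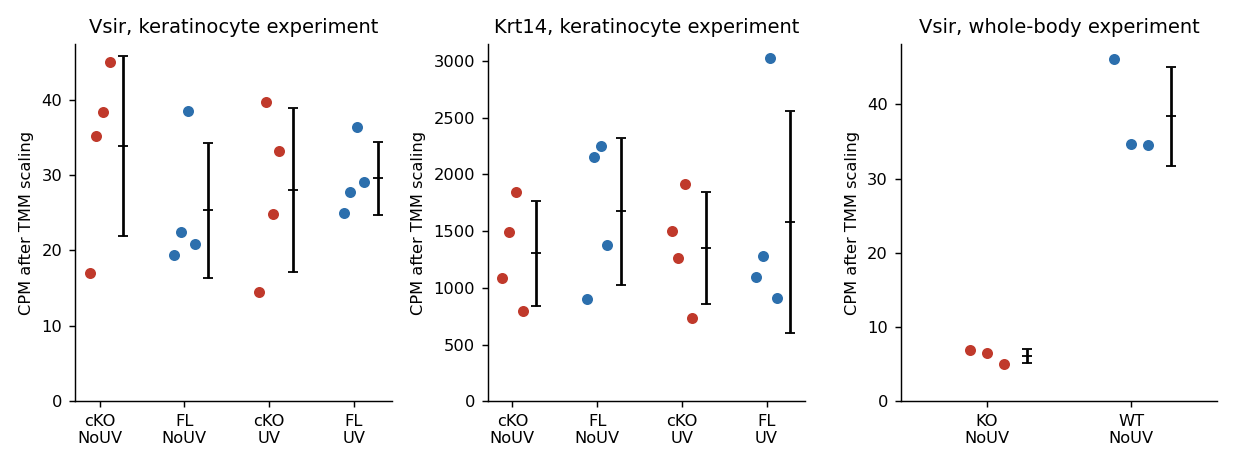
CPM of Vsir and Krt14 in each library of the keratinocyte experiment and of Vsir in resting skin of the whole-body experiment; the black bars are mean ± SD (n = 4 per group, and n = 3 for KO and WT). Vsir overlaps between cKO_NoUV and FL_NoUV libraries, and does not overlap between KO_NoUV and WT_NoUV libraries.

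Across the transcriptome, the edgeR quasi-likelihood test called 0 of 19718 genes tested at an adjusted p under 0.05 (0%), and the smallest adjusted p was 0.557. At an unadjusted p under 0.05 there were 928 genes (4.71%), of which 577 were higher in cKO_NoUV (2.93%) and 351 were lower (1.78%). A DESeq2 Wald test called 7 genes, all higher in cKO_NoUV, among them Atf3, Nr4a1, Usp18, Cytl1, Fosb and Apol7a, and limma-voom with library weights called 0. The groups did not overlap for 277 genes that were higher (1.4%) and 156 that were lower (0.791%). For a gene of median precision the SE was 0.27 and the 95% interval reached 0.57 log2 units to each side, with no adjustment for the number of genes. The adjusted threshold asks for larger differences than that. All values that follow are therefore measured differences that did not pass the adjusted threshold in the edgeR fit. They are named by a rule on p and on list membership, and the small p of a gene so chosen is a description.

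The genes of smallest p among those higher in cKO_NoUV, of which 11 are described, included 4 immediate early transcription factors, which are switched on rapidly by growth factors, stress and mechanical stimuli. Atf3 (ENSMUSG00000026628.14), a stress-induced factor of the ATF/CREB family, had 6.05, 10.45, 6.25 and 11.18 CPM in cKO_NoUV libraries, against 1.84, 3.01, 4.23 and 2.38 CPM in FL_NoUV libraries. Every cKO_NoUV library was above every FL_NoUV library. Its log2FC was 1.53 (SE 0.27, unadjusted p = 2.82e-05, edgeR adjusted p = 0.557). DESeq2 gave it an adjusted p of 0.000288, and it was the 1 gene that edgeR called when no filter on low counts was used (adjusted p = 0.00627). Nr4a1 (ENSMUSG00000023034.8), an orphan nuclear receptor, had 30.8, 85.03, 30.76 and 22.02 CPM in cKO_NoUV libraries and 9.91, 8.51, 11.56 and 9.68 CPM in FL_NoUV libraries. Here too the groups did not overlap, and cKO_NoUV 2 stood far above the other 3 (log2FC 2.09, SE 0.39). Fosb, a subunit of AP-1, had 47.26, 39.1, 7.66 and 18.12 CPM in cKO_NoUV libraries and 6.80, 2.44, 11.15 and 1.598 CPM in FL_NoUV libraries. The lowest cKO_NoUV library lay below the highest FL_NoUV library (log2FC 2.36, SE 0.57). Egr1, a zinc finger factor, had 213, 586, 414.8 and 244.7 CPM in cKO_NoUV libraries and 155.7, 107.8, 134.8 and 219.9 CPM in FL_NoUV libraries, with cKO_NoUV 1 just inside the FL_NoUV range (log2FC 1.24, SE 0.31).

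The upstream sequences of 3 of these genes and of Rsad2, an interferon-stimulated gene described further on, show the elements that are searched for in both lists. They are the 250 bases before the RefSeq start of each gene on GRCm38.p6, printed along the gene's own strand. They lie at chr1:191183334-191183583 on the minus strand for Atf3, chr15:101266596-101266845 on the plus strand for Nr4a1, chr7:19310046-19310295 on the minus strand for Fosb and chr12:26456453-26456702 on the minus strand for Rsad2. Capitals mark CGTCA or its reverse complement TGACG in the first 3, the core of the element bound by CREB and ATF proteins, and in Rsad2 a match on the opposite strand to GAAA, any 2 bases and GAAA again, the core of the interferon-stimulated response element.
Atf3: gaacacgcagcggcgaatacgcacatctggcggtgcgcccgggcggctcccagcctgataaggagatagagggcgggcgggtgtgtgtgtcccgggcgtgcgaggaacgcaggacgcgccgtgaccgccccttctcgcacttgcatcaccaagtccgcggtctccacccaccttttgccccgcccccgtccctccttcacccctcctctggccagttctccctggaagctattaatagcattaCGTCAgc
Nr4a1: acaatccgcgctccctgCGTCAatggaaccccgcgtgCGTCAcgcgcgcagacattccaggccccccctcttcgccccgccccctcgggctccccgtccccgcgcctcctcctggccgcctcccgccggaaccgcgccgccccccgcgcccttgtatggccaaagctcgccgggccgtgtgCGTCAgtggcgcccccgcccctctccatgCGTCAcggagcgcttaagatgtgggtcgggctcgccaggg
Fosb: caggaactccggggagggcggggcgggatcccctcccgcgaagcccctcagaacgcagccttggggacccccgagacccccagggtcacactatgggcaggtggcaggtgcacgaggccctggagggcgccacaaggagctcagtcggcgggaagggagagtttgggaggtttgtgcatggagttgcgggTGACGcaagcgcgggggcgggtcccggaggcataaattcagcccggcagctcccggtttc
Rsad2: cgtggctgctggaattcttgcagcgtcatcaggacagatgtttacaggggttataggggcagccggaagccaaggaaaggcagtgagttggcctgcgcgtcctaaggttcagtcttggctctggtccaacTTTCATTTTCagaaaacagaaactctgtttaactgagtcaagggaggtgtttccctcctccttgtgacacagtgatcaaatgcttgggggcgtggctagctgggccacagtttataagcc
Nr4a1 held 4 copies of CGTCA in this window, and Atf3 and Fosb held 1 each. Over the immediate early list, 19 of 27 genes matched a RefSeq entry, with 23 promoters, and 14 of these (60.9%) held CGTCA on either strand, whereas 17.8% of all 32851 promoters did. Of the interferon-stimulated genes, 32 of 43 matched, with 36 promoters. This paired GAAA motif was in 15 of these (41.7%) and in 2.98% of all promoters. The same window of Irf7, a member described further on, held 0 matches to it. Both motifs were searched on both strands, and a match is a description of the sequence alone.

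The immediate early list held 25 genes that passed the filter, of 27 named. Of these, 12 reached an unadjusted p under 0.05 and were higher in cKO_NoUV, against 2.93% of all genes tested, and 0 were lower. The log2FC was above 0 for 23 of 25 and its median was 0.46, beside 0.00 over all genes. The mean log2 CPM of the list was 5.81, 6.16, 5.67 and 5.60 in cKO_NoUV libraries and 5.17, 4.95, 5.27 and 5.04 in FL_NoUV libraries, so the groups did not overlap. The 8 other members under that threshold were of several kinds and are named because they passed it. Dusp1, a phosphatase that shuts off MAP kinases, had 36.52, 69.27, 99.05 and 129.5 CPM in cKO_NoUV libraries and 32.57, 32.25, 55.76 and 23 CPM in FL_NoUV libraries (log2FC 1.22, SE 0.32). The secreted matricellular proteins Ccn1 and Ccn2, known as targets of the mechanosensitive YAP pathway, had log2FC of 1.30 (SE 0.37) and 1.13 (SE 0.47). For Ccn1 every cKO_NoUV library, at 18.41, 63.93, 20.47 and 31.06 CPM, was above every FL_NoUV library, at 14.02, 10.06, 16.44 and 13.72 CPM. Zfp36, which encodes the mRNA-destabilising protein tristetraprolin, also did not overlap, with 90.79, 101.1, 111.9 and 98.41 CPM in cKO_NoUV libraries and 66.28, 72.4, 80.14 and 67.46 CPM in FL_NoUV libraries (log2FC 0.49, SE 0.17). Klf2, Ier2, Klf6 and Ier3 had log2FC of 0.66, 0.44, 0.35 and 0.44.

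Fos, the best known member of the list, was at 23.17, 35.8, 57.72 and 71.03 CPM in cKO_NoUV libraries and 27.9, 9.70, 48.73 and 9.78 CPM in FL_NoUV libraries, and these overlapped widely (log2FC 0.97, SE 0.46, unadjusted p = 0.052). Leaving out 1 library at a time left 8 to 13 members at an unadjusted p under 0.05 and medians of 0.45 to 0.61. Without the 3 libraries that stood apart in hair follicle genes, 8 members were under it with a median of 0.41. With hair follicle and muscle levels as covariates there were 12, with a median of 0.58. After UVB the list had a median of 0.17, with 20 of 25 above 0.

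**Figure D3:**
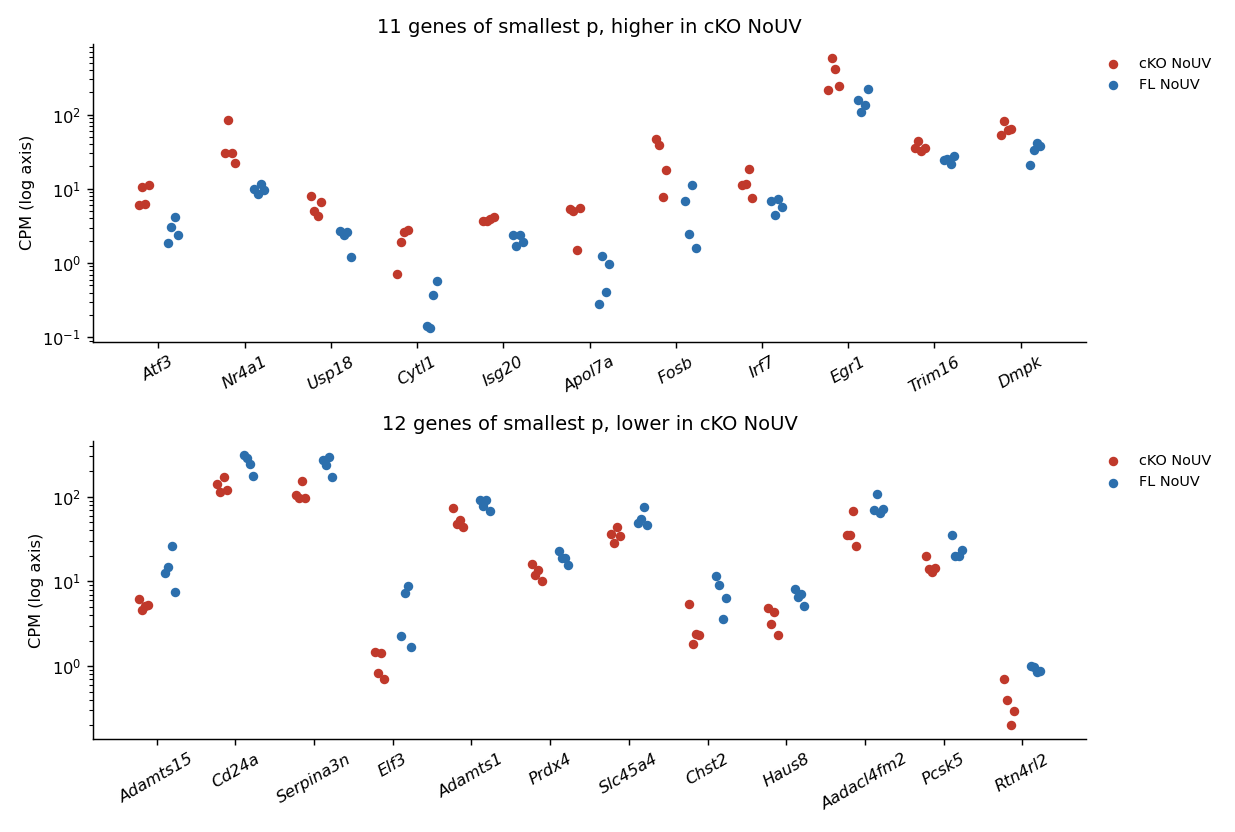
CPM on a log axis in each cKO_NoUV library (left of each pair) and FL_NoUV library (right) for 11 genes that were higher and 12 that were lower, taken by smallest unadjusted p. The groups do not overlap for 9 of the 11 genes that were higher and for 7 of the 12 that were lower, and none of the 23 was called by edgeR.

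Interferon-stimulated genes, which are switched on by type I interferon, are named in the title of the series, and several ranked high in resting skin. Usp18, a protease that removes ISG15 from proteins and dampens the interferon receptor, had 7.88, 5.03, 4.25 and 6.61 CPM in cKO_NoUV libraries, against 2.69, 2.39, 2.59 and 1.22 CPM in FL_NoUV libraries. The groups did not overlap (log2FC 1.43, SE 0.30, edgeR adjusted p = 0.917, DESeq2 adjusted p = 0.00939). Irf7, the factor that amplifies type I interferon production, had 11.4, 11.67, 18.59 and 7.62 CPM in cKO_NoUV libraries and 6.80, 4.43, 7.33 and 5.70 CPM in FL_NoUV libraries, also without overlap (log2FC 1.03, SE 0.25). Isg20, an interferon-induced exonuclease that was not on the list, was tightly grouped, at 3.65, 3.73, 3.95 and 4.14 CPM in cKO_NoUV libraries and 2.41, 1.68, 2.42 and 1.94 CPM in FL_NoUV libraries (log2FC 0.88, SE 0.21). Rsad2, which encodes the antiviral enzyme viperin, overlapped, at 4.06, 7.07, 9.66 and 9.46 CPM in cKO_NoUV libraries and 3.12, 4.30, 7.13 and 1.72 CPM in FL_NoUV libraries (log2FC 0.88, SE 0.40).

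Of 41 interferon-stimulated genes tested, 5 were higher at an unadjusted p under 0.05, against 2.93% of all genes, and 0 were lower. These were Usp18, Irf7, Rsad2, Xaf1 (log2FC 0.52) and Oas3 (log2FC 0.84). The log2FC was above 0 for 37 of 41, with a median of 0.40. Well known members named after their values were seen did not stand together: Isg15 had 0.68 (SE 0.45), Ifit1 had 0.42 (SE 0.25) and Mx1 had −0.04 (SE 0.44). The mean log2 CPM of the list was 2.91, 2.94, 3.30 and 3.13 in cKO_NoUV libraries and 2.71, 2.63, 3.14 and 2.20 in FL_NoUV libraries, with FL_NoUV 3 inside the cKO_NoUV range and FL_NoUV 4 lowest. Leaving out FL_NoUV 4 brought the median to 0.20, with 2 members higher and 1 lower at an unadjusted p under 0.05. Leaving out FL_NoUV 2 also left 2, with a median of 0.30, leaving out cKO_NoUV 3 left 3, with 0.25, and leaving out FL_NoUV 3 left 14, with 0.47. Without the 3 libraries that stood apart in hair follicle genes the median was 0.15. After UVB the median was −0.06 and 16 of 41 were above 0.

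The ligands and sensors upstream of these genes did not share that sign. Of 16 tested, 5 had a log2FC above 0, the median was −0.03 and 1 was under the unadjusted threshold. This was Cgas, the cytosolic DNA sensor, with 13.06, 10.18, 10.17 and 7.54 CPM in cKO_NoUV libraries and 23.09, 15.95, 10.98 and 10.03 CPM in FL_NoUV libraries (log2FC −0.54, SE 0.24). Of 27 antigen presentation genes, 21 were above 0, with a median of 0.20, which ran from 0.00 without cKO_NoUV 4 to 0.37 without FL_NoUV 3. H2-Q4, a class Ib molecule, had a log2FC of 0.57 (SE 0.20). Cxcl10, an interferon-induced chemokine counted on this list and not on the interferon-stimulated list, had −0.99 (SE 0.39).

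**Figure D4:**
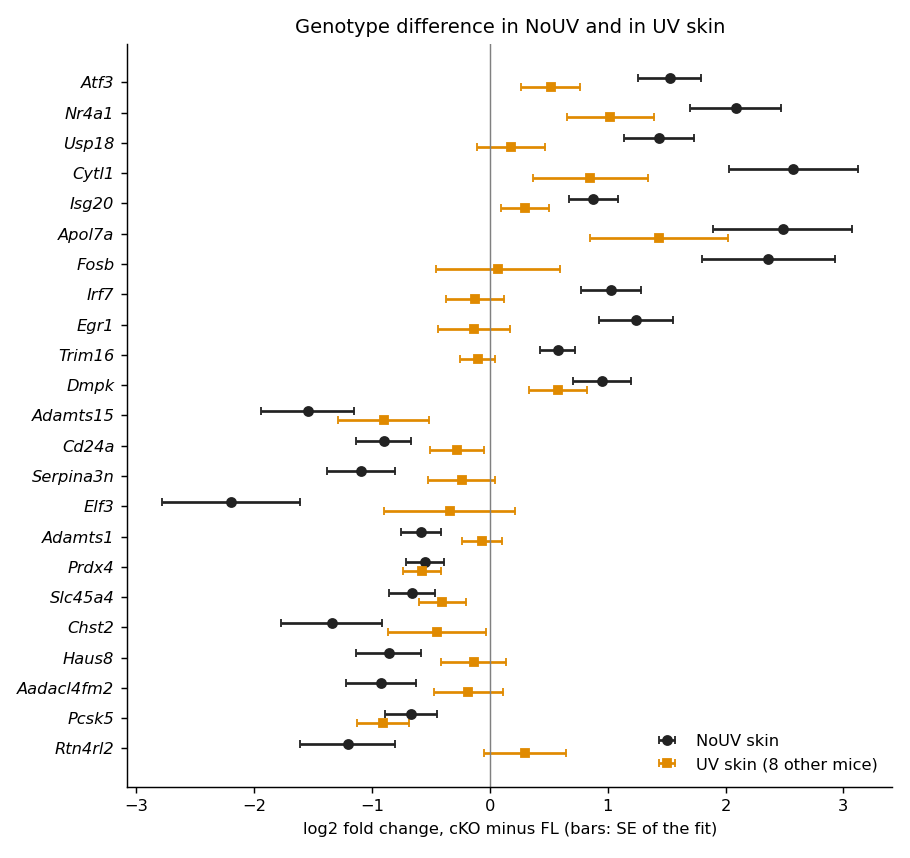
Log2FC of cKO minus FL with its SE for the same 23 genes, in resting skin (circles) and in UVB-exposed skin of 8 other mice (squares). In UVB-exposed skin 8 of the 11 genes higher in cKO_NoUV and 11 of the 12 lower ones have the same sign, mostly nearer to 0, while Irf7, Egr1, Trim16 and Rtn4rl2 have the opposite sign.

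The other genes of smallest p that were higher did not belong to 1 list. Cytl1, a secreted cytokine-like protein, had 0.705, 1.92, 2.64 and 2.81 CPM in cKO_NoUV libraries and 0.142, 0.133, 0.375 and 0.564 CPM in FL_NoUV libraries (log2FC 2.57, SE 0.55). It was separated between groups at a level that rested on few reads. Apol7a, of the apolipoprotein L family, had 5.35, 4.99, 1.505 and 5.44 CPM in cKO_NoUV libraries and 0.283, 1.24, 0.409 and 0.971 CPM in FL_NoUV libraries (log2FC 2.48, SE 0.59). Trim16, an E3 ubiquitin ligase, had a log2FC of 0.58 (SE 0.15) and Dmpk, a kinase abundant in muscle, had 0.95 (SE 0.25), both without overlap.

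Among the 12 genes of smallest p that were lower in cKO_NoUV, Adamts15, a metalloproteinase that cleaves proteoglycans, had 6.18, 4.56, 5.18 and 5.27 CPM in cKO_NoUV libraries, against 12.75, 14.84, 26.5 and 7.52 CPM in FL_NoUV libraries (log2FC −1.54, SE 0.39). Its relative Adamts1 had a log2FC of −0.59 (SE 0.17), and Pcsk5, a proprotein convertase, had −0.67 (SE 0.22). Serpina3n, an inhibitor of serine proteases that is induced in inflammation and wounds, had 106.1, 97.37, 154.5 and 96.02 CPM in cKO_NoUV libraries and 268.4, 234.3, 292.5 and 171.9 CPM in FL_NoUV libraries. Every cKO_NoUV library was below every FL_NoUV library (log2FC −1.09, SE 0.29). The same held for Cd24a, a surface glycoprotein of epithelial progenitors, at 142.5, 114.2, 169.1 and 119.1 CPM in cKO_NoUV libraries and 314.3, 286.1, 242.2 and 173.5 CPM in FL_NoUV libraries (log2FC −0.90, SE 0.23). Elf3, an epithelial transcription factor of keratinocyte differentiation, had 1.45, 0.825, 1.44 and 0.712 CPM in cKO_NoUV libraries and 2.27, 7.22, 8.94 and 1.66 CPM in FL_NoUV libraries, with FL_NoUV 1 and 4 close to the cKO_NoUV range (log2FC −2.19, SE 0.59). Prdx4, a peroxidase of the endoplasmic reticulum, had −0.55 (SE 0.16), Slc45a4, a transporter, −0.66 (SE 0.20), and Haus8, a subunit of the augmin complex of the spindle, −0.86 (SE 0.28). Chst2, a sulfotransferase, had −1.34 (SE 0.43), Rtn4rl2, a receptor related to the Nogo receptor, −1.21 (SE 0.40), and Aadacl4fm2 −0.92 (SE 0.30).

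Genes of epidermal differentiation lay mostly below 0. Of 31 tested, 4 were lower at an unadjusted p under 0.05, against 1.78% of all genes, and 0 were higher, with a median of −0.32 and 5 above 0. Flg, whose product filaggrin aggregates keratin filaments in the granular layer, had 1746, 380.2, 2976 and 393.6 CPM in cKO_NoUV libraries and 5967, 4170, 5915 and 2057 CPM in FL_NoUV libraries. Only cKO_NoUV 3 lay within the FL_NoUV range, and the cKO_NoUV values spread widely (log2FC −1.72, SE 0.72). Krt1, the suprabasal keratin, had 2162, 1956, 4865 and 1568 CPM in cKO_NoUV libraries and 6152, 5912, 8297 and 2991 CPM in FL_NoUV libraries (log2FC −1.15, SE 0.49). Casp14, the protease that processes filaggrin, had a log2FC of −1.25 (SE 0.54), and Hrnr, a filaggrin relative, had −1.06 (SE 0.48). None of these 4 genes was under the threshold in every analysis that left out 1 library, and the count on the list ran from 0 to 8. It was 8 without cKO_NoUV 3, 2 without FL_NoUV 2 or cKO_NoUV 1, and 0 without FL_NoUV 1, FL_NoUV 3, cKO_NoUV 2 or cKO_NoUV 4, and with hair follicle and muscle covariates it was 1.

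The late cornified envelope genes, which are cross-linked beneath the membrane of dying keratinocytes, had a median of −0.88, with 2 of 19 above 0 and 2 lower under the unadjusted threshold, against 1.78% of all genes. The count was 4 without FL_NoUV 4, 7 without cKO_NoUV 3 and 0 without any other single library. Lce1g had 47.05, 45.34, 142.6 and 16.37 CPM in cKO_NoUV libraries and 254.1, 197.1, 214.5 and 97.63 CPM in FL_NoUV libraries (log2FC −1.60, SE 0.69). These genes are close copies of one another, so the division of reads among them is uncertain. Keratinocyte stress genes, those of wounded and inflamed epidermis, had a median of −0.98, with 3 of 22 above 0 and 2 lower under the threshold, against the same 1.78%. That count was 7 without cKO_NoUV 1, 4 without cKO_NoUV 3 or FL_NoUV 4, and 1 without FL_NoUV 1, cKO_NoUV 2 or cKO_NoUV 4. Il36b, an epidermal cytokine of the interleukin-1 family, had 47.76, 39.41, 80.36 and 32.23 CPM in cKO_NoUV libraries and 158.5, 95.12, 120.7 and 50.32 CPM in FL_NoUV libraries (log2FC −1.08, SE 0.43). Sprr2a1, a small proline-rich envelope protein, had 0.0415, 0.0393, 0.167 and 0.0419 CPM in cKO_NoUV libraries and 0.283, 1.06, 1.71 and 0.313 CPM in FL_NoUV libraries. Its values went down to 1 count in a library, and it too has close copies. S100a8, an alarmin, had a log2FC of −1.75 (SE 0.82). After UVB the medians were −0.03 for differentiation, −0.31 for the late envelope and −0.81 for stress.

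All 28 cell cycle genes had a log2FC below 0, between −0.90 and −0.31, with a median of −0.74. Only Aurka, a mitotic kinase, was under the unadjusted threshold (log2FC −0.83, SE 0.38), 1 of 28 against 1.78% of all genes. Mki67, the proliferation marker, had 610, 254.1, 483.9 and 138.4 CPM in cKO_NoUV libraries and 587.9, 702.1, 421.6 and 776.9 CPM in FL_NoUV libraries, so the groups overlapped (log2FC −0.74, SE 0.47). The replication gene Mcm4 had −0.62 (SE 0.32). The list's mean log2 CPM was 5.50, 4.54, 5.10 and 3.54 in cKO_NoUV libraries and 5.49, 5.82, 4.95 and 5.79 in FL_NoUV libraries. The low values were cKO_NoUV 4 and, to a lesser degree, cKO_NoUV 2, and the median without cKO_NoUV 4 was −0.46. Without cKO_NoUV 1 there were 15 members under the threshold and the median was −1.05, without FL_NoUV 3 there were 5, without FL_NoUV 2, FL_NoUV 4, cKO_NoUV 2 or cKO_NoUV 4 there were 0, and with hair follicle and muscle covariates there were 0 and it was −0.38. These genes are transcribed together in dividing cells, and the matrix of a growing follicle is rich in them. Whether follicle state bears on the difference was not tested beyond the covariate fit. After UVB all 28 were also below 0, with a median of −0.81.

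Markers of tissues without Cre were also measured, and 0 of those described next were called. Of 20 skeletal muscle genes, 8 were higher in cKO_NoUV at an unadjusted p under 0.05, against 2.93% of all genes, 19 were above 0, and the median was 0.90. Ckm, the muscle creatine kinase, had 201, 658.1, 434 and 649.6 CPM in cKO_NoUV libraries and 261.3, 243.5, 279.9 and 183.3 CPM in FL_NoUV libraries, with cKO_NoUV 1 inside the FL_NoUV range (log2FC 1.01, SE 0.42). Mb, the oxygen carrier myoglobin, had a log2FC of 1.36 (SE 0.43), the troponin gene Tnni2 had 0.98 (SE 0.40) and the calcium release channel gene Ryr1 had 0.86 (SE 0.36). The count was 1 without cKO_NoUV 2, without cKO_NoUV 4 or without FL_NoUV 4, 17 without cKO_NoUV 1, 5 without FL_NoUV 1 and 4 without FL_NoUV 2. Without the 3 libraries that stood apart in hair follicle genes it was 10. After UVB the median was 1.02, with all 20 above 0. With the hair follicle level alone as a covariate, 1123 genes were at an unadjusted p under 0.05 and 0 were called. With the muscle level itself added as a covariate, 558 genes were under that threshold and 0 were called. The muscle median was then 0.03, which largely follows from the fit, since the covariate was the level of this same list. The part of muscle content in the other differences was not tested beyond that fit.

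Erythroid genes had a median of 0.83, with 4 of 7 higher at an unadjusted p under 0.05, against 2.93% of all genes. Hbb-bs, a beta globin, had 12.48, 29.74, 21.43 and 18.21 CPM in cKO_NoUV libraries and 11.05, 8.37, 8.32 and 10.09 CPM in FL_NoUV libraries, without overlap (log2FC 1.12, SE 0.40). Hba-a2, an alpha globin, had 1.31 (SE 0.57) and Alas2, the first enzyme of haem synthesis in red cells, had 0.83 (SE 0.34). The globin genes are near-identical pairs whose reads may be split between copies. The count was 0 without cKO_NoUV 2, 1 without FL_NoUV 1 or without cKO_NoUV 3, and 2 without FL_NoUV 2 or without the 3 libraries that stood apart in hair follicle genes. Adipocyte genes had a median of 0.34, with 13 of 14 above 0, and Slc2a4, the insulin-regulated glucose transporter of fat and muscle, had a log2FC of 0.92 (SE 0.40). Of 12 Schwann cell and nerve genes, 10 were above 0, and Prx and Cdh19 had log2FC of 0.63 (SE 0.28) and 0.76 (SE 0.35). Of 18 genes induced by glucocorticoids or fasting, 14 were above 0. In that list Zbtb16 had 9.58, 40.04, 61.46 and 44.54 CPM in cKO_NoUV libraries and 16.57, 14.13, 20.56 and 10.93 CPM in FL_NoUV libraries (log2FC 1.33, SE 0.45), and Klf15 had 0.77 (SE 0.33). The list's median was 0.51, and 0.05 with hair follicle and muscle covariates. With those covariates the adipocyte median was 0.03, and it was 0.10 without cKO_NoUV 4 and 0.56 without cKO_NoUV 1.

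Hair follicle genes gave no stable difference. The anagen list had 0 of 33 members under the unadjusted threshold and a median of 0.70, which was −5.02 without cKO_NoUV 1. Hair keratin-associated proteins had 22 of 22 tested genes above 0 and a median of 1.81, which was −6.78 without that library, while the mean log2 CPM of the list was 0.45 lower in cKO_NoUV than in FL_NoUV. The sign of these lists thus rested on 1 library. Melanocyte genes, which are transcribed in pigmented anagen follicles, had a median of 0.09, and −3.02 without cKO_NoUV 1. Among 33 regulators of the follicle, 3 growth factors were higher at an unadjusted p under 0.05, against 2.93% of all genes. Fgf10 had 8.29, 9.47, 8.06 and 8.16 CPM in cKO_NoUV libraries and 4.53, 5.32, 3.51 and 6.52 CPM in FL_NoUV libraries (log2FC 0.77, SE 0.30). Fgf7, its relative from dermal fibroblasts, had 13.35, 10.88, 9.33 and 15.24 CPM in cKO_NoUV libraries and 8.07, 6.20, 8.25 and 6.30 CPM in FL_NoUV libraries (log2FC 0.76, SE 0.28). Neither overlapped between groups, although cKO_NoUV 1 was far from the other cKO_NoUV libraries in follicle genes. Bmp6 had 0.60 (SE 0.27).

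T cell and immune checkpoint genes were measured at low levels. The mean log2 CPM of these lists was 1.38 and 2.41 in cKO_NoUV, against 1.16 and 2.35 in FL_NoUV. Of 25 T cell genes, 18 were above 0, with a median of 0.35 and 0 under the unadjusted threshold. Cd3g, a chain of the T cell receptor complex, had 2.90, 6.48, 5.79 and 10.3 CPM in cKO_NoUV libraries and 3.54, 3.10, 4.26 and 4.58 CPM in FL_NoUV libraries (log2FC 0.71, SE 0.35), and the gamma delta receptor constant gene Trdc had 0.69 (SE 0.40). The T cell median was 0.02 without cKO_NoUV 4, 0.09 with a stricter filter on low counts and −0.13 with hair follicle and muscle covariates. Among 18 immune checkpoints, Lag3, an inhibitory receptor of activated T cells, had 1.74, 1.53, 1.04 and 2.18 CPM in cKO_NoUV libraries and 0.283, 0.620, 0.512 and 0.971 CPM in FL_NoUV libraries, without overlap (log2FC 1.34, SE 0.36, unadjusted p = 0.00177, edgeR adjusted p = 0.923). Cd276, a B7 relative of VISTA, had 15.42, 14.54, 11.9 and 12.47 CPM in cKO_NoUV libraries and 15.58, 17.9, 19.1 and 18.83 CPM in FL_NoUV libraries, again without overlap (log2FC −0.40, SE 0.23). The checkpoint median was −0.04, with 8 of 18 above 0.

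Cd207, the langerin gene of Langerhans cells, had 5.31, 15.68, 10.77 and 14.27 CPM in cKO_NoUV libraries and 8.21, 7.36, 5.49 and 5.86 CPM in FL_NoUV libraries (log2FC 0.78, SE 0.34), whereas the 16 dendritic and Langerhans genes had a median of −0.02. Macrophage and monocyte genes, the cells in which VISTA is best known, had a median of −0.03, with 10 of 22 above 0 and 0 under the threshold. The 8 neutrophil genes tested had a median of −1.33, with 2 above 0. This median ran from −1.85 to −0.82 over the alternatives, and after UVB it was 0.13. Among these genes Cxcr2 had −1.35 (SE 0.48) and Mmp8 had −1.79 (SE 0.79), while Mmp9, which other cells also make, had 1.41 (SE 0.46). The list also holds S100a8, described above with the keratinocyte stress genes, so its median is not of neutrophil transcripts alone. Of the 15 neutrophil names, 8 passed the filter on low counts. Mast cell genes had a median of −0.31, with 1 of 13 above 0. The median was 0.04 without FL_NoUV 3, −0.15 without cKO_NoUV 2, −0.52 without cKO_NoUV 4, −0.55 without FL_NoUV 4 and −0.87 without the 3 libraries that stood apart in hair follicle genes. The mast cell and basophil receptor chain Ms4a2 had 0.415, 1.10, 1.10 and 1.21 CPM in cKO_NoUV libraries and 1.98, 1.91, 3.41 and 1.38 CPM in FL_NoUV libraries, without overlap (log2FC −1.18, SE 0.50), and the basophil receptor Cd200r3 had −1.77 (SE 0.60). Jchain, the joining chain of secreted antibody, had 1.36 (SE 0.72), and it was high in cKO_NoUV 4.

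Of 32 inflammatory cytokines and their regulators, 4 were higher and 2 lower at an unadjusted p under 0.05, against 2.93% and 1.78% of all genes. Tnfaip3 and Nfkbia, both induced by NF-kappaB to restrain it, had log2FC of 0.57 (SE 0.20) and 0.39 (SE 0.17), while the chemokines Ccl12 and Ccl17 had −0.97 (SE 0.43) and −2.19 (SE 0.97). For Ccl17 the FL_NoUV libraries ran from 0 to 2.35 CPM, and 1 of them had no count. The IL-17 and IL-23 list had a median of −0.03. Of 25 p53 targets, Phlda3 had 0.57 (SE 0.19), without overlap, and Ptp4a3 had 0.83 (SE 0.31), with a list median of 0.12. The small heat shock proteins Hspb8 and Hspb1 had 0.60 (SE 0.17) and 0.83 (SE 0.32), and their list of NRF2 and heat shock genes had a median of 0.03. Per1, a clock gene that also answers to stimuli, had 0.62 (SE 0.27), with a median of 0.22 over 18 clock genes. Fibroblast and matrix genes had a median of 0.02, with Col6a3 and Col6a2, chains of collagen VI, at −0.72 (SE 0.25) and −0.51 (SE 0.20). Lists of endothelial, sebaceous gland, B and plasma cell and limb position (Hox) genes had medians of 0.09, 0.01, 0.27 and −0.04, and 0 of their members were under the unadjusted threshold. The B and plasma cell median ran from −0.14 with hair follicle and muscle covariates to 1.12 without FL_NoUV 3.

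**Figure D5:**
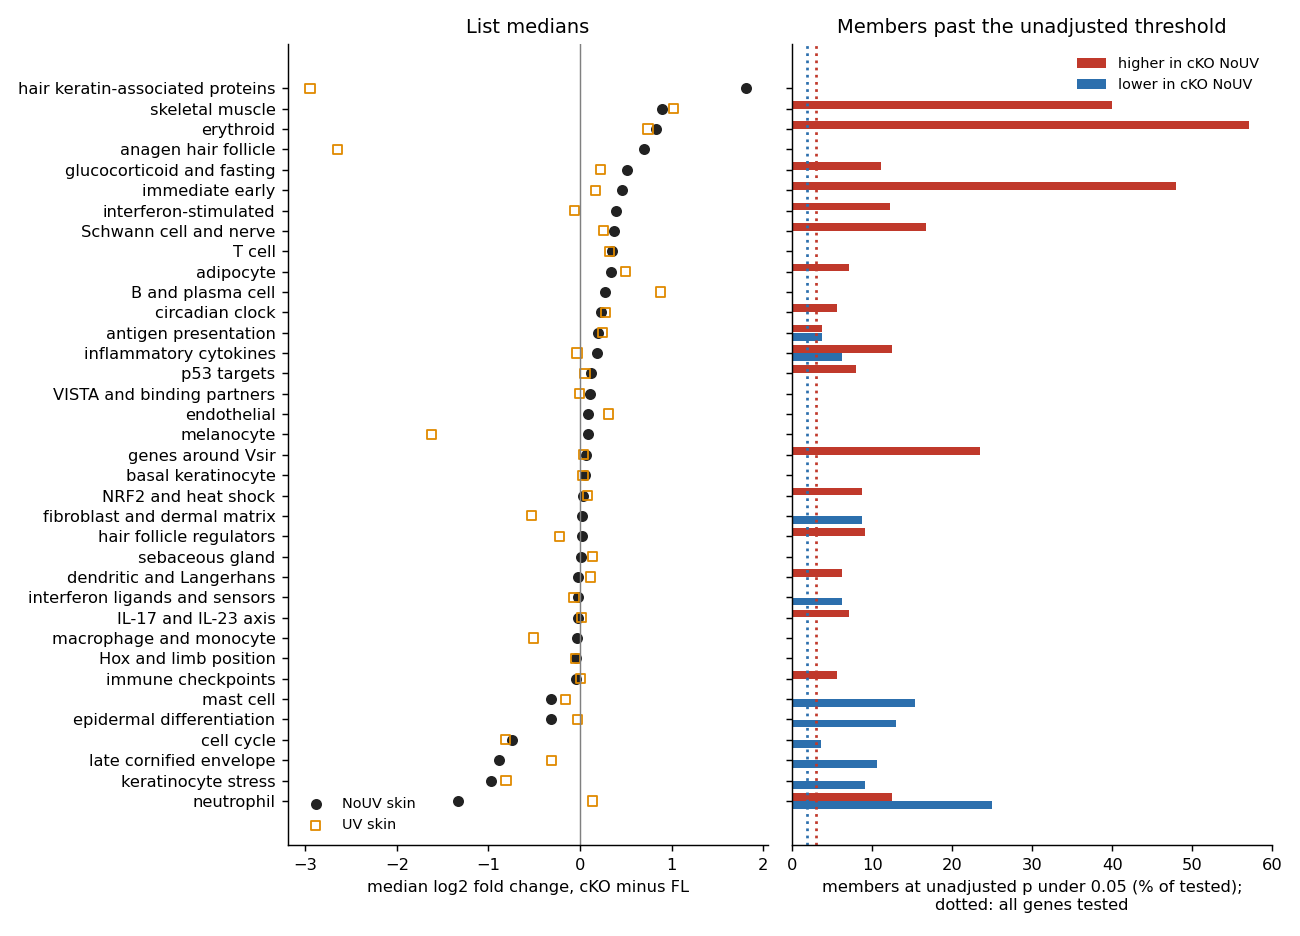
Median log2FC (cKO minus FL) of 36 gene lists in resting (circles) and UVB-exposed (open squares) skin, and the share of each list's tested members at an unadjusted p under 0.05 in resting skin, with dotted lines at 2.93% (higher) and 1.78% (lower) of all genes tested. Immediate early, skeletal muscle and erythroid genes have the longest bars for higher genes, and the anagen and keratin-associated hair lists have medians of opposite sign in the 2 conditions with no member under the threshold.

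Genes near Vsir on chromosome 10 were described separately, since both groups carried the floxed locus. Within 5 Mb of Vsir, 82 genes were tested and 0 were called. Of these, 12 (14.6%) were under the unadjusted threshold, against 4.71% of all genes, 10 higher and 2 lower, and the median was 0.02. Mcu, the pore of the mitochondrial calcium uniporter, had 31.38, 46.01, 36.42 and 49.48 CPM in cKO_NoUV libraries and 22.09, 29.64, 28.78 and 30.17 CPM in FL_NoUV libraries, without overlap (log2FC 0.56, SE 0.18). Over the alternatives the log2FC of Mcu ran from 0.31 to 0.80. Prf1, the cytotoxic pore protein perforin, had 1.46 (SE 0.56), which was 0.89 without cKO_NoUV 4 and 0.29 with hair follicle and muscle covariates. In KO_NoUV minus WT_NoUV, Mcu had 0.48 and Prf1 had −0.15. Whether the floxed locus or tissue content bears on the share of 14.6% was not tested. The groups did not overlap for 2 of the 82 genes, near the shares of 1.4% (higher) and 0.791% (lower) over all genes.

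The same genotype pair after UVB shares no library with the resting pair. There the edgeR test also called 0 of 19718 genes (0%), with 1046 at an unadjusted p under 0.05 (5.3%), higher for 2.89% of genes and lower for 2.42%, and DESeq2 called 2. Of the 928 genes under the unadjusted threshold in resting skin, 778 (83.8%) had the same sign after UVB, against 65.4% of all genes, and 166 were under it in both with the same sign. Skeletal muscle and cell cycle lists, with medians of 0.90 and −0.74 in resting skin and 1.02 and −0.81 after UVB, lay on the same side of 0 in both. Among the 23 genes described for their small p, those under the unadjusted threshold after UVB were 3 of the 11 higher, Nr4a1 (log2FC 1.02), Apol7a (1.43) and Dmpk (0.58), and 3 of the 12 lower, Adamts15 (−0.90), Prdx4 (−0.58) and Pcsk5 (−0.91). A test of the difference between the resting and the UVB contrast called 0 genes (0%), with 248 at an unadjusted p under 0.05 (1.26%), and DESeq2 called 0. No gene was thus shown to differ by genotype in resting skin alone.

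In resting skin of the whole-body experiment, edgeR called 2 of 20365 genes (0.00982%), Vsir and Wdfy1, and 3219 (15.8%) were at an unadjusted p under 0.05. Of the 865 genes under that threshold in the keratinocyte experiment and measured in both, 672 (77.7%) had the same sign in KO_NoUV minus WT_NoUV, against 59.8% of all 18069 shared genes. Of the 23 genes, 8 of the 11 higher and 10 of the 12 lower had the same sign there. Atf3 had 1.07, Usp18 1.08 and Apol7a 2.22 in that comparison, while Nr4a1 had −0.16, Fosb −0.45 and Egr1 −0.30. List medians there were −0.14 for immediate early genes, 0.77 for interferon-stimulated genes, −0.67 for epidermal differentiation, −0.80 for the cell cycle and 0.71 for skeletal muscle. The experiments carry different batch labels and different alleles, and the difference between their genotype effects was not tested.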

How the data were processed

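RNA of whole skin was sequenced from rRNA-depleted, stranded total RNA libraries read in pairs, with RNA integrity of at least 8 per the labels. The deposited values are raw counts per gene. Per the submitters' processing notes, the authors used cutadapt 4.6, HISAT2 2.1.0 and featureCounts with GRCm38. Strand and multi-mapping settings are not given in the sources used here. Only 2.76% of 51884 matched genes in the keratinocyte table had their GRCm38 position, so its coordinates are not printed. The gene lengths in the table are summed exon bases per the file headers and were not used to normalise.

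The 57126 genes were filtered with filterByExpr of edgeR 4.0.16 (R 4.3.3), which kept 19718. All 16 libraries of the keratinocyte experiment were fitted together with TMM scaling, robust quasi-likelihood dispersions and 1 coefficient per group, and the contrast used the 8 resting libraries. Two-sided p values were corrected by Benjamini-Hochberg over the whole table, and 0.05 was the threshold. The whole-body experiment of 12 libraries was fitted separately. CPM are TMM-scaled, and list levels are means of log2 CPM with a prior count of 3. Intervals are 95%. The code was tested on simulated counts.

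Named genes were Vsir and Krt14, the 12 of smallest p in each direction averaging 0 or more in log2 CPM (since none was called, omitting predicted genes), up to 4 members per list of smallest p, and any called within 5 Mb of Vsir. Genes outside the rule are marked, and some that the rule selects are not reported here. The members, the 36 lists and the rule were chosen with earlier results of these data known. Alternatives were DESeq2 1.42.0 (Wald test, or size factors in edgeR), limma-voom 3.58.1 with library weights, no filter, a stricter filter, fits of only the 2 groups, blocks by replicate or animal-number series, tissue covariates and leaving out each library. One added after seeing the data left out the 3 libraries that stood apart in hair follicle genes. Replicate libraries were compared pairwise and none agreed within sampling noise. In the main edgeR fits, p values set each group difference against the spread between sampled mice of the same group, estimated over all libraries of that experiment.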

Additional observations from a re-analysis of the deposited data

Results flagged for a closer look

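Within each group of 4 libraries, a value was listed when its distance from the nearest other library, as a share of the group's range, exceeded Dixon's 95% critical value for 4 samples. Of 264 groups tested over the named genes and the lists, 20 (7.58%) did so, and chance lists about 1 in 20 groups, which share libraries and are not independent.

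Among cKO_NoUV libraries, replicate 1 was highest for the hair keratin-associated protein list (share 0.922, mean log2 CPM 6.33, the others −2.37 to −1.69), the melanocyte list (0.977), Chst2 (0.832) and S100a8 (0.976), and lowest for Ptp4a3 (0.950), Hspb1 (0.831) and Ms4a2 (0.857). Replicate 2 was highest for Nr4a1 (0.861, 85.03 CPM, the others 22.02 to 30.8) and Fgf10 (0.835). Replicate 3 was highest for the epidermal differentiation list (0.952, mean log2 CPM 8.91, the others 8.10 to 8.14), Hrnr (0.883) and Sprr2a1 (0.980), and lowest for Apol7a (0.885). Replicate 4 was highest for Jchain (0.909).

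Among FL_NoUV libraries, replicate 1, the shallowest, was highest for Trdc (0.839) and lowest for Phlda3 (0.981) and Hspb1 (0.870). Replicate 3 was highest for Vsir (0.838, 38.54 CPM, the others 19.4 to 22.51) and Xaf1 (0.859), and replicate 4 was lowest for Ifit1 (0.834). Without FL_NoUV 3 the log2FC of Vsir was 0.69 (SE 0.32, edgeR adjusted p = 0.75). No gene was called in the test of the difference between resting and UVB-exposed skin.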

How the results depend on the processing

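For cKO_NoUV against FL_NoUV, edgeR called 0 genes in each analysis that left out 1 library, with 460 (without cKO_NoUV 4) to 2475 (without cKO_NoUV 1) genes at an unadjusted p under 0.05, beside 928 with all libraries. Without the 3 libraries that stood apart in hair follicle genes it called 0, with 1495 at that threshold. The count of calls was 7 with the DESeq2 Wald test and 1 (Atf3) with no filter, and limma-voom gave 0 calls and 4310 genes at an unadjusted p under 0.05. For UVB-exposed skin DESeq2 called 2 genes, both lower. The difference between resting and UVB-exposed skin had 0 calls in every alternative run. For KO_NoUV against WT_NoUV the 2 calls became 584 with DESeq2, 481 with limma-voom, 185 with no filter, 4 with only the 2 groups, 22 with the replicate block, and 2 to 13 when 1 library was left out. The cause of these shifts was not tested.

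Replicate numbers are shared between the groups, and the deviations of same-numbered libraries correlated at −0.094, −0.067, 0.443 and −0.236. The highest value of any pair was 0.537, for cKO_NoUV 1 with FL_NoUV 4, which both stood apart in hair follicle genes. Because follicle state weighs on these correlations, they cannot tell whether the numbers pair mice or litters. A replicate block called 1 gene in resting skin, Klk9 (log2FC −1.34, edgeR adjusted p = 0.0324), and gave Vsir a log2FC of 0.38.

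Vsir stayed uncalled in all 19 alternatives (log2FC 0.18 to 0.69). Of the 96 named genes, those other than Vsir had 1803 alternative values. Of these values 1790 kept direction and side of the threshold, and 7 became called, 6 of them with DESeq2 and Atf3 also with no filter. Mx1, near 0, changed sign in 6 (−0.34 to 0.28 over the libraries left out 1 at a time): 0.48 with limma-voom, 0.36 with both tissue covariates, and 0.12, 0.28, 0.13 and 0.01 without FL_NoUV 1, FL_NoUV 3, cKO_NoUV 1 or cKO_NoUV 4. Of 684 list medians, 665 moved by less than the spread between libraries and 19 by more. With 4 mice a side, the unadjusted 95% interval reached 0.57 log2 units to each side at median precision, and Atf3, at 1.53 (SE 0.27), did not pass the adjusted threshold.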
